A study of Mus musculus with 23 samples.

Results

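At E7.5, 1546 of the 383556 autosomal windows with a value in all 8 libraries were at least 15 percentage points more methylated in extra-embryonic ectoderm (ExE) than in epiblast. These ExE-higher windows were selected on the mean of the 4 ExE libraries minus the mean of the 4 epiblast libraries, and they made up 0.403% of the windows. The opposite difference of 15 points or more was found in 214773 windows. A window here is 1 interval of the table of percent methylation per 100 CpGs; the reference sequence holds a median of 48 CpG dinucleotides in an ExE-higher window and 51 in all windows, about as many as 100 cytosines on both strands would give.

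DNA methylation was measured by post-bisulphite adaptor tagging (PBAT), where the DNA is converted first and receives its adaptors later, in hybrids of C57BL6/Babr (B6) and CAST/Ei (CAST) mice, with the mother's strain named first. The wild-type groups were single E7.5 embryos of B6/CAST and CAST/B6, with 2 epiblast and 2 ExE libraries of each cross, and pools of E6.5 embryos, with 3 epiblast and 2 ExE libraries of each cross. The matDKO/CAST embryos at E6.5, with 2 epiblast and 3 ExE libraries, came from females of a mixed B6 and 129 background in which Zp3-cre removed floxed Dnmt3a and Dnmt3b in the oocyte, so that the embryos were heterozygous for both genes. The 129 alleles of these mothers and the oocyte deletion cannot be told apart by a comparison with B6/CAST.

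The ExE gives rise to the trophoblast of the placenta, and the epiblast to the embryo proper. After implantation the de novo methyltransferases fill most of the epiblast genome with methylation, while ExE stays lower. CpG islands at promoters of developmental transcription factors, which are commonly bound by Polycomb complexes, are kept free of methylation in the epiblast.

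To show what such windows look like, the 200 bases with most CpGs and no annotated untranslated region are given for 4 of them, chosen among the windows with the largest differences that are shorter than 1 kb and among those at starts of homeobox genes. All are read 5′ to 3′ on the plus strand of GRCm38, and capitals mark CpG dinucleotides. The stretch in Zfpm1 (chr8:122336775-122336974), a cofactor of GATA factors, holds 27 CpGs, that in Urm1 (chr2:29845319-29845518), a ubiquitin-like protein, holds 20, that at Pax8 (chr2:24474885-24475084), a factor of thyroid and kidney development, holds 10, and that at Otx2 (chr14:48666941-48667140), a homeobox factor of the epiblast and the anterior nervous system, holds 14.
Zfpm1: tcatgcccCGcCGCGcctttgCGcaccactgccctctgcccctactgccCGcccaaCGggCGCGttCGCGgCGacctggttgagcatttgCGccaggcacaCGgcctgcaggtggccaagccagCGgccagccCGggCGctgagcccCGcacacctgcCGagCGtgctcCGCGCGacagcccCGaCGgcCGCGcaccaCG
Urm1: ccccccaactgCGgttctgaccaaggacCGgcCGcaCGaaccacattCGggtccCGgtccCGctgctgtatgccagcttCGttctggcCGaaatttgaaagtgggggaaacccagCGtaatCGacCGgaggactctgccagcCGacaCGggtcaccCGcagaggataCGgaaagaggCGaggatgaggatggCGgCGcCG
Pax8: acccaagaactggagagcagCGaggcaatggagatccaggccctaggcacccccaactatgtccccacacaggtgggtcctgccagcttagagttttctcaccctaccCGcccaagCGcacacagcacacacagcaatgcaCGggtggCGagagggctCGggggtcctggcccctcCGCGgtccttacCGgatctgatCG
Otx2: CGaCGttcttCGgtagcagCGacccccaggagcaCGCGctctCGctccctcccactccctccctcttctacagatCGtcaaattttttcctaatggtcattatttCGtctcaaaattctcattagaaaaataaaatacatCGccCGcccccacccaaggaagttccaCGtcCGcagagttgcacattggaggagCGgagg

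ExE-higher windows were short and CpG-rich. Their median length was 1899 bp, with an interquartile range of 1305 to 2676 bp, against 5216 bp for all windows. Since most windows hold a like number of CpGs, a short window is usually a CpG-dense one. The 657 windows of 1 to 2 kb were 4.38% of all windows of that length, whereas the 175 windows under 1 kb were 1.05% and the 637 of 2 to 4 kb were 0.703% of theirs. Of the windows of 4 to 8 kb, 74 were ExE-higher, which is 0.0445%. The ratio of observed to expected CpGs had a median of 0.407 against 0.20 in all windows, GC content 51.5% against 43.8%, and soft-masked repeats covered a median of 12.3% against 24.9%. The class with the highest share was thus not the most CpG-dense class but the next one. The shortest ExE-higher window, 371 bp in Zfpm1 (chr8:122336287-122336657), adjoins the Zfpm1 window of the sequence above, and the longest, 259409 bp around Entpd4b and Loxl2 (chr14:69350100-69609508), holds 3196 reference CpGs.

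**Figure D1:**
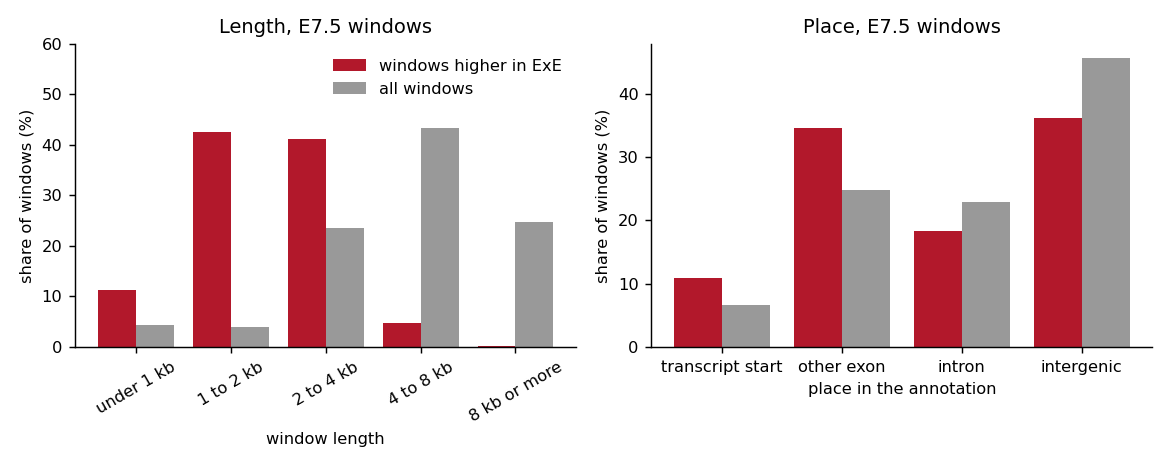
Share of the 1546 ExE-higher windows (red) and of all 383556 complete windows (grey), in percent, by window length (left) and by place in the annotation (right). The ExE-higher windows are gathered between 1 and 4 kb, and 36.2% of them are intergenic, that is, outside protein-coding genes, against 45.6% of all windows.

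A protein-coding transcript start of the GENCODE vM21 annotation lay in 169 ExE-higher windows (10.9%, against 6.65% of all windows), another exon in 534 (34.5% against 24.8%), only an intron in 284 (18.4% against 22.9%) and no protein-coding gene in 559 (36.2% against 45.6%). Exons and introns are those of protein-coding genes, and intergenic here means outside such genes, so other genes may lie there. Proximity to a start was more marked than overlap with one. The median distance to the nearest start was 3530 bp, against 33546 bp for all windows, and 906 windows (58.6%, against 21.4%) were within 5 kb. Of the 1371 ExE-higher windows of 1 kb or more, 412 (30.1%) had a window under 1 kb next to them, at most 1000 bp away, against 5.42% of all windows of that length. The 326 CpG-dense neighbours that were not ExE-higher themselves had a mean of 3.33% in E7.5 epiblast and 9.07% in ExE.

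Methylation in most of these windows was low in the E7.5 epiblast and intermediate in ExE. The values come from the libraries that chose the windows and are given as a description. The median over the windows was 9.99% in E7.5 epiblast and 31.7% in ExE, whereas all windows had medians of 80.8% and 60.6%. In 1193 of them (77.2%) the epiblast mean was under 20%, against 6.59% of all windows. The ExE mean exceeded 50% in 214 of the 1546, against 286602 of all 383556 windows. All 4 ExE libraries were above all 4 epiblast libraries in 1462 of the 1546 windows, and 1048 passed 15 points in each cross taken alone. Both counts were favoured by the selection on these same libraries. Just inside the threshold were windows at Alx4 (15.01 points), Jak3 (15.02) and near Foxa2 (15.03), and just outside it windows at Hoxc4 (14.995) and near Tmem161b (14.99).

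The largest difference, 46.3 points, was in an intergenic window 86070 bp from the nearest start, that of Ercc6l2 (chr13:63901404-63902976). Its E7.5 epiblast libraries had 9.5% and 5.7% in B6/CAST and 8.8% and 13.7% in CAST/B6, and its ExE libraries 46.5%, 65.5%, 57.0% and 54.1% in the same order. The groups did not overlap. Among the windows next in order were homeobox genes. Irx1, an Iroquois patterning factor (chr13:71957511-71958649), had 4.2%, 9.0%, 5.1% and 9.1% in epiblast and 33.1%, 60.7%, 57.0% and 47.8% in ExE. En2, which acts at the midbrain-hindbrain boundary (chr5:28170049-28172608), had 19.8%, 8.1%, 10.1% and 16.4% in epiblast and 50.5%, 51.6%, 65.9% and 56.8% in ExE. In Irx1 the lowest ExE library, B6/CAST replicate 1, was well below the other three. Large differences, in windows spaced by more than 50 kb, were also found in Zfpm1 (40.8 points), the forkhead gene Foxp4 (40.4), Irx2 (40.3), Urm1 (39.95), the chromatin reader gene Zmynd8 (38.8), the semaphorin receptor gene Nrp2 (38.02) and the homeobox gene Meis1 (38.01).

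The windows were clustered along the chromosomes. With neighbours within 50 kb joined, they formed 707 clusters, of which 434 held a single window and 80 held 5 or more, with 623 windows between them. The cluster with most windows, 28 over 219892 bp, covered the T-box genes Tbx3 and Tbx5 (chr5:119625681-119845572), regulators of limb and heart development, with differences of 15.1 to 36.6 points at E7.5. It was followed by the Hoxb cluster with 25 windows (chr11:96170797-96366997), the Hoxa cluster with Evx1 with 20 (chr6:52154353-52322893), the surroundings of the nuclear receptor gene Nr2f2 with 17 (chr7:70276785-70369184) and the Hoxd cluster with 16 (chr2:74674197-74753895). Neighbouring windows of 1 gene are not independent of each other.

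The gene lists show how far the windows were gathered at developmental regulators. Of 20488 protein-coding genes with a start in a complete window, 537 (2.62%) had an ExE-higher window within 5 kb of a start and 158 (0.771%) had one at a start. Among homeobox genes, which encode patterning factors, it was 126 of 174 (72.4%) within 5 kb and 29 at a start, among them Pax8 (35.8 points), Otx2 (31.9) and Hoxd3 (27.6). Among other developmental transcription factors it was 78 of 184 (42.4%) and 23 at a start, including the germ cell and pluripotency regulator Prdm14 (29.0), Nr2f2 (26.8), Tcf21 (25.3) and Tfap2b (21.6). Signalling genes of the Wnt, Fgf, TGF-beta, Hedgehog and Notch pathways had such a window in 22 of 118 cases (18.6%), with Tdgf1 (30.4), Lefty1 (17.3) and Dll3 (15.6) at their starts. Within 5 kb, homeobox genes had the highest share among the lists.

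Lists of cell identity were shorter. Epiblast and pluripotency genes had an ExE-higher window within 5 kb in 9 of 33 cases (27.3%), and 6 had one at a start (18.2%, against 16.7% of homeobox genes), including Otx2, Tdgf1, Prdm14 and Pou5f1 (20.8 points), which encodes Oct4. Trophoblast genes had one in 8 of 35 cases (22.9%), with Prdm1 (15.1 points), a repressor in spongiotrophoblast and germ cell development, the only one at a start; that list and the previous one share Sox2. Imprinted genes had one in 11 of 61 cases, neurotransmitter receptor and potassium channel genes in 7 of 133 and clustered protocadherin genes in 2 of 53. None was found within 5 kb of a start in 54 germline genes or in 19 genes of the DNA methylation machinery. Some genes were counted in more than 1 list. Otx2, Prdm14, Tbx3, Zic2, Lefty1 and Tdgf1 of the epiblast list are also in the homeobox, transcription factor or signalling lists. Bmp4 is in the trophoblast and signalling lists, and Peg10 in the trophoblast and imprinted lists. No set test was made on these counts.

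At E6.5 a different set of libraries allowed the tissue difference to be tested, since the windows had been selected on E7.5 values alone. The midpoints of 1537 ExE-higher windows fell in 1463 E6.5 windows, 9 had none, and the E6.5 windows covered a median of 80.7% of the E7.5 window. The tables do not give the depth behind a percentage, so the precision of a single value is unknown. As a check of the tissue labels, Elf5, a trophoblast regulator whose promoter is methylated in the epiblast, was read in 2 start windows. In the first (chr2:103411630-103416440) the 6 wild-type E6.5 epiblast libraries ranged from 77.0% to 99.1% and the 4 ExE libraries from 51.4% to 63.6%, without overlap. In the second (chr2:103424013-103426371) epiblast ranged from 42.5% to 80.4%, and ExE had 10.7%, 10.8%, 50% and 12.9%, so that CAST/B6 ExE replicate 1 fell within the epiblast range.

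Most ExE-higher windows were more methylated in ExE at E6.5 as well. Of the 1120 with a value in all 10 wild-type libraries, 630 (56.2%) were higher in ExE at an adjusted p below 0.05 (limma, cross as a covariate, Benjamini-Hochberg adjustment over 250886 windows), 14 were lower, and 1008 (90%) had a positive difference. Among all windows tested 0.663% were called higher and 59.6% lower. The median difference was 15.4 points, with an interquartile range of 8.39 to 22.0, against -16.6 points over all windows. Every ExE library was above every epiblast library in 302 windows (27.0%, against 0.345% of all windows tested). Among E6.5 windows under 4 kb, 2.54% were called higher, and 581 of 916 (63.4%) of those that held a midpoint. The ExE-higher windows supplied 37.9% of all calls higher in ExE. After subtraction of each library's mean, 973 were called higher and 0 lower, the median difference was 31.9 points, 8.66% of all windows were called higher, and the ExE-higher windows supplied 4.48% of those calls. With a replicate block, which leaves fewer degrees of freedom, 220 (19.6%) were called higher and 6 lower. That fit called 0.152% of all windows higher, and the ExE-higher windows supplied 57.7% of those calls.

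**Figure D2:**
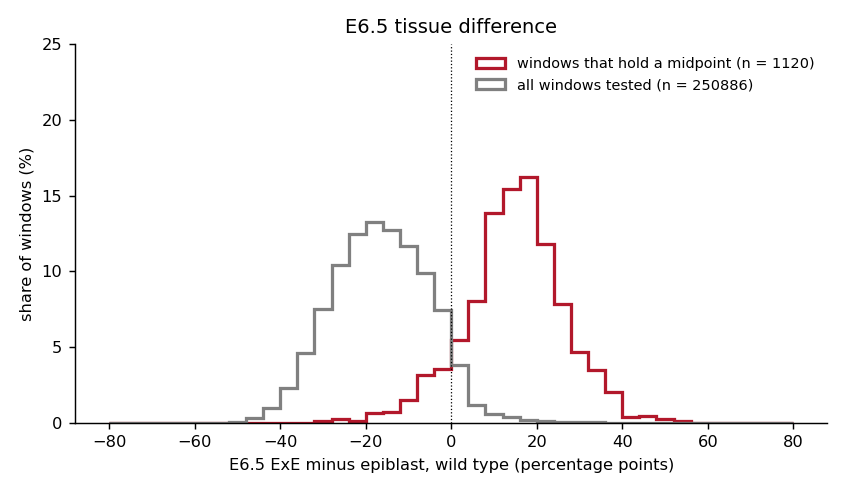
Distribution of the E6.5 difference between wild-type ExE and epiblast, in percentage points from limma, for the 1120 tested windows that hold the midpoint of an ExE-higher window (red) and for all 250886 tested windows (grey), as share of windows in percent. The red distribution is centred at 15.4 points and the grey at -16.6.

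The share of calls varied with the class of window, and differences between classes were not tested. Calls were made in 348 of 509 windows (68.4%) with an E7.5 epiblast mean under 10%, in 58.3% of those with 10 to 20% and in 96 of 292 (32.9%) with 20% or more. All windows of these epiblast levels, read at E6.5 in the same way, were called higher in 7.09%, 7.96% and 0.184% of cases. At transcript starts 45 of 114 (39.5%) were called, at other exons 62.0%, in introns 59.7% and outside protein-coding genes 53.5%, where all windows of the same place had 1.52%, 0.874%, 0.493% and 0.401%. For ExE-higher windows near any protein-coding gene 381 of 634 (60.1%) were called, with a median of 15.6 points. For windows near homeobox genes 144 of 210 (68.6%) were called, with a median of 17.3 points, and for those near other developmental transcription factors 87 of 126 (69.0%), with 16.3 points. Near signalling genes it was 16 of 22, near epiblast and pluripotency genes 9 of 14, near trophoblast genes 2 of 7 and near imprinted genes 5 of 12. The start window of Pou5f1 had a difference of -8.46 ± 6.21 points at E6.5 (adjusted p = 0.247), in an E6.5 window of 5610 bp for 3573 bp. The windows of the Tbx3 and Tbx5 cluster were called in 18 of 21 cases, those of Hoxb in 12 of 18, of Hoxa in 8 of 13, around Nr2f2 in 9 of 11 and of Hoxd in 2 of 6. A further 1034 E6.5 windows without a midpoint were called higher in ExE. Of these, 470 (45.5%) lay within 50 kb of an ExE-higher window, where 5.53% of the windows tested without a midpoint were found.

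The largest E6.5 difference was 9267 bp from the start of En1 (E7.5 window chr1:120611685-120614432), the partner of En2 in the midbrain. The 6 wild-type epiblast libraries ranged from 0% to 32.3% with a median of 2.27%, and the ExE libraries had 55.2% and 59.3% in B6/CAST and 92.0% and 52.0% in CAST/B6. The difference was 53.5 ± 9.31 points (SE, adjusted p = 0.00118), and the tissues did not overlap. In Cit, which encodes citron kinase (chr5:115907499-115909230), epiblast ranged from 0% to 22.3% with a median of 12.2%, and ExE had 81.5%, 69.3%, 53.9% and 40.7% (49.5 ± 6.63, adjusted p = 0.000523). At the start of Magi1, a junction scaffold gene (chr6:93912874-93914715), epiblast ranged from 2.17% to 36.5% with a median of 14.7%, and ExE had 59.3%, 69.1%, 72.2% and 63.6% (49.0 ± 6.83, adjusted p = 0.000576). These also showed no overlap. Differences of 43.0 to 48.9 points were found at Lhx9, near Nr2f2, at C77080 and Gbx2, and near Irx2. These 8 windows kept their call under every alternative that refits them.

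At the start of Otx2 (chr14:48666941-48668795), whose sequence is given above, the difference was present at both stages. At E7.5 epiblast had 1.1%, 7.9%, 2.2% and 4.8% and ExE 34.7%, 40.8%, 41.8% and 26.4%. At E6.5 epiblast ranged from 0% to 20.5% with a median of 1.75%, and ExE had 44.1% and 28.1% in B6/CAST and 26.7% and 38.9% in CAST/B6 (29.6 ± 5.08, adjusted p = 0.00112). The epiblast of both crosses was close to unmethylated except for B6/CAST replicate 1. The Urm1 window was called at E6.5 (37.6 ± 7.19, adjusted p = 0.00178), the Zfpm1 window also (25.9 ± 8.91, adjusted p = 0.0261), and the Pax8 window was not (10.5 ± 7.09, adjusted p = 0.211). In Urm1 and Zfpm1, CAST/B6 ExE replicate 2 lay within the wild-type epiblast range. It had 32% against 0% to 40% in Urm1, and 9.09% against 1.56% to 34.4% in Zfpm1. The Pax8 window of 1474 bp was read at E6.5 through one of 4401 bp, and the part of this length in the value was not tested.

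The 14 windows called lower in ExE at E6.5 mostly lay in E6.5 windows much longer than the E7.5 window they were matched to. In 12 of them the E6.5 window was 4 kb or more, and their median length was 6528 bp, against 2028 bp where ExE was higher. The lowest values were -29.0 ± 4.87 points in Akap2 (adjusted p = 0.00104), -27.6 in Ebf3, -27.2 near Tfap2b, -24.6 at Lsamp and -20.6 at Nhlh2. In Akap2 (chr4:57782617-57784335, 1719 bp) the E6.5 window of 4555 bp had 68.7% to 91.7% in wild-type epiblast and 45.7%, 49.4%, 54.8% and 55.2% in ExE, while the E7.5 window had 16% to 24.8% in epiblast and 31.0% to 42.0% in ExE. After subtraction of library means none of the 14 was called, and the part of window length in these values was not tested. At the Tfap2b start itself (chr1:19211587-19214184) ExE was higher at E6.5 (23.1 ± 4.78, adjusted p = 0.00253).

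Around the windows, E6.5 methylation formed a dip that was narrower and deeper in the epiblast. Mean methylation of the E6.5 windows centred within 1 kb of a midpoint was 15.6% ± 2.84 (SD, n = 6) in wild-type epiblast and 32.9% ± 1.23 (SD, n = 4) in ExE. At -10 kb from the midpoint it was 43.1% ± 1.45 and 41.3% ± 2.57, and at 10 kb on the other side 41.6% ± 1.38 and 39.7% ± 2.71. At -20 kb epiblast was the higher, with 60.3% ± 3.84 against 50.8% ± 4.78. ExE was the higher tissue up to 6 kb and epiblast from 8 kb on either side, and windows near several midpoints enter more than once.

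**Figure D3:**
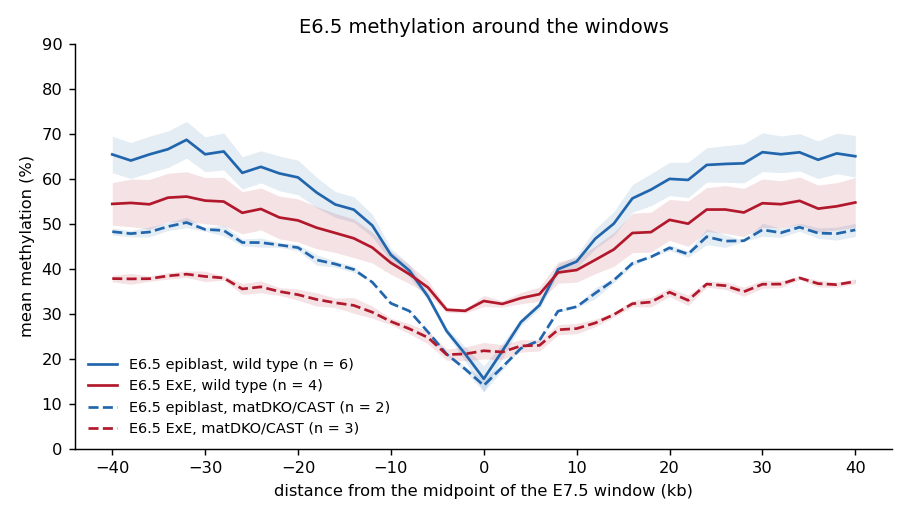
Mean E6.5 methylation (%) by distance (kb, in steps of 2 kb) from the midpoint of the ExE-higher windows, for epiblast (blue) and ExE (red) of wild type (solid) and matDKO/CAST (dashed); bands are SD over libraries. ExE exceeds epiblast only near the centre, 32.9% against 15.6% in wild type and 21.8% against 14.1% in matDKO/CAST.

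Over the 804 E6.5 windows that had a value in all 15 libraries, wild-type means per library were 21.3% to 28.4% in epiblast and 38.9% to 40.4% in ExE, and the tissues did not overlap. Over all 167307 such windows the order was the reverse, with 74.9% ± 5.40 (SD, n = 6) in epiblast and 59.2% ± 6.69 (SD, n = 4) in ExE. B6/CAST epiblast replicate 1 had the highest mean of the epiblast libraries over the ExE-higher windows, 28.4%, and the lowest of the wild-type ones over all windows, 65.9%; the part of this library in the results was not tested beyond leaving it out, which gave 632 windows higher in ExE. The ExE mean over all windows was 53.5% ± 0.0487 in B6/CAST and 64.97% ± 1.70 in CAST/B6 (SD, n = 2 each), yet over the ExE-higher windows it was 39.6% ± 1.11 and 39.5% ± 0.299. Both B6/CAST ExE columns and 2 of the 3 of matDKO/CAST ExE are marked as re-imported in their names, and neither of CAST/B6 ExE is; what this marks is not given in the sources used here, and its part in these values was not tested. At E7.5 the libraries had 13.1% to 15.1% in epiblast and 32.5% to 36.4% in ExE over all 1546 windows.

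**Figure D4:**
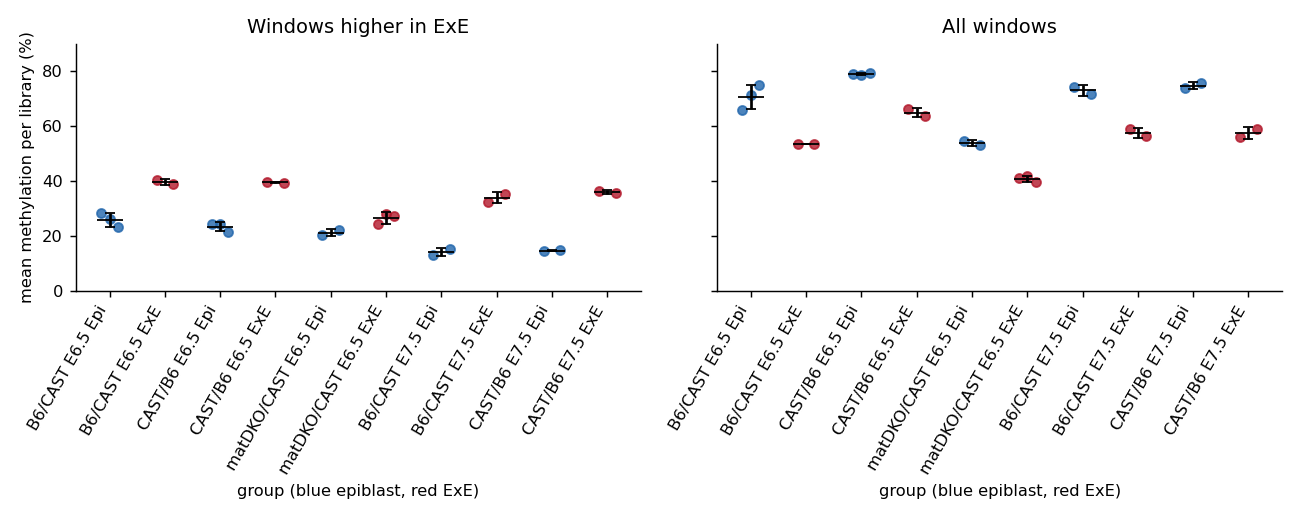
Mean methylation (%) of each library over the ExE-higher windows (left: 804 E6.5 windows, 1546 E7.5 windows) and over all windows (right), with the group mean and SD as black bars. Within each cross at each stage, the ExE points lie above the epiblast points on the left and below them on the right, and the matDKO/CAST ExE mean on the left is 26.5%.

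Embryos of matDKO/CAST had less methylation in these windows in ExE. Their ExE libraries had means of 24.1%, 28.0% and 27.3%, and those of B6/CAST 40.4% and 38.9%, a difference of -13.1 points, with no overlap. Over all windows the difference was -12.7 points. Put as a share, matDKO/CAST ExE had 66.8% of the B6/CAST level in the ExE-higher windows and 76.3% over all windows. In limma none of the 1174 windows tested was called, nor any of all 254322 windows (percent called 0), and the smallest adjusted p was 0.132. An unadjusted p below 0.05 with a lower value in matDKO/CAST was found in 318 (27.1%), close to the 25.7% of all windows. In points and in this share, the ExE-higher windows were close to all windows. With B6/CAST and CAST/B6 pooled as wild type, 152 of the 1174 (12.9%) were called lower, against 26.3% of all windows. Without pooling, the median difference from limma was -12.7 points, and it was -0.253 points after subtraction of library means.

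In the epiblast the same comparison gave a smaller difference in points in these windows than over all windows. The matDKO/CAST epiblast libraries had 20.2% and 22.1%, and those of B6/CAST 28.4%, 26.0% and 23.2%, a difference of -4.74 points, against -16.8 points over all windows. As a share, matDKO/CAST epiblast had 81.7% of the B6/CAST level in these windows and 76.2% over all windows. Of 940 windows tested, 32 (3.40%) were called lower in matDKO/CAST and 2 higher, whereas 23.4% of all windows were called lower and 0.0291% higher. This count was not stable. Leaving out 1 epiblast library lowered it to 11 without the unnumbered B6/CAST library, 17 without B6/CAST replicate 3, 19, 16 and 18 without CAST/B6 replicates 1, 2 and 3, and 15 without matDKO/CAST replicate 3, where the 1 library left is assumed to vary like the other groups. The calls over all windows also changed, from 45008 to between 10473 and 55365. A fit on the logit scale, one with a replicate block and one after subtraction of library means made no such call, in these windows or in any of the 192419. Subtracting library means turned the median difference from -4.15 to 12.6 points. Of the 32 windows, 5 were called higher in wild-type ExE.

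The values of this list are those of the E6.5 windows, whose median length over the 32 was 4163 bp, so that several lie largely in sequence beside the named E7.5 window. Among the windows called lower was Smug1, a uracil-DNA glycosylase gene (chr15:103154458-103156659), with 64.5%, 57.1% and 65.5% in B6/CAST epiblast and 20% and 9.8% in matDKO/CAST (-47.5 ± 6.76, adjusted p = 0.0129), read in an E6.5 window of 6683 bp for 2202 bp at E7.5. The start window of Nap1l5 (chr6:58906734-58907488), an imprinted gene whose promoter receives its methylation in the oocyte, had 67.04%, 63.0% and 72.9% in B6/CAST and 29.4% and 22.7% in matDKO/CAST (-41.6 ± 8.44, adjusted p = 0.0178), in an E6.5 window of 3687 bp for 755 bp. In ExE it had 80.8% and 54.7% in B6/CAST and 30%, 39.6% and 32.8% in matDKO/CAST (-33.6 ± 10.4, adjusted p = 0.136). The groups did not overlap in either tissue at Nap1l5. Others were Gse1 (-41.5 points), the liver and haematopoietic homeobox gene Hhex (-34.3) and Fgfr2 (-34.2), a receptor of Fgf ligands, and intergenic windows nearest to Synm, Cyp7b1, Msx1 and Tfap2b, the last 3 in E6.5 windows of 11429, 7488 and 11742 bp. Akap2 was called as well (-37.2), in the E6.5 window of 4555 bp described above. The 2 windows called higher, which are named because they were so few and whose number ran from 0 to 15 with each library left out (15 without matDKO/CAST replicate 1), were at Dlx1, a forebrain homeobox gene (23.1% and 31.2% against 5.7%, 3.6% and 8.8%), and at Oxct2b within Bmp8b (48.4% and 45.0% against 23.8%, 17.7% and 24.5%).

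Within matDKO/CAST, ExE remained the higher tissue in most of these windows, by a smaller margin. The mean difference was 5.35 points over the 804 windows, against 13.8 in B6/CAST and 16.2 in CAST/B6. On the scale with library means subtracted, the median from limma was 18.5 points within matDKO/CAST, where it was 5.67 without. ExE was higher in 579 windows (72.0%) in matDKO/CAST, in 705 (87.7%) in B6/CAST and in 710 (88.3%) in CAST/B6, whereas over all windows it was higher in 18.03%, 8.68% and 10.4%. In limma on the 5 matDKO/CAST libraries none of 995 windows was called and none of all 194850 (percent called 0), the smallest adjusted p being 0.0934. An unadjusted p below 0.05 with ExE higher was found in 89 (8.94%), against 0.60% of all windows. At Otx2 both matDKO/CAST epiblast libraries were at 0% and the ExE libraries had 31.6%, 23.7% and 28.6%, while at Magi1 epiblast had 22.2% and 15.3% and ExE 17.2%, 20% and 21.1%. ExE was thus apart from epiblast in the first window and not in the second.

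The difference between these tissue differences was tested by an interaction term over all 15 libraries. It had a median of -8.21 points in the ExE-higher windows and 3.55 points over all 167307 windows, and it was negative, that is, smaller in matDKO/CAST, in 612 of 804 windows (76.1%, against 39.1%). No window was called, in the list or overall (percent called 0), and the smallest adjusted p in the list was 0.348. With library means subtracted the median was -12.3 points. With an unadjusted p below 0.05 in that direction there were 90 (11.2%, against 1.95%). The comparisons with matDKO/CAST and the wild-type comparison share the B6/CAST libraries. For windows near homeobox genes the median tissue difference was 15.3 points in B6/CAST and 6.23 in matDKO/CAST, and near other developmental transcription factors 13.8 and 6.80. For ExE-higher windows near any protein-coding gene it was 14.1 and 5.73.

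Both parental alleles carried the E7.5 difference. For 707 ExE-higher windows all 16 allele values were present, and because they come from reads of the libraries that selected the windows, they are given without a test. On the maternal allele epiblast had 16.1% ± 0.835 and ExE 36.5% ± 1.60, and on the paternal allele 16.4% ± 1.13 and 36.7% ± 2.21 (SD, n = 4 each). The median tissue difference was 19.8 points on the maternal and 19.6 on the paternal allele, and 19.9 on the B6 and 19.7 on the CAST allele. ExE was higher on both parental alleles in 692 windows (97.9%), and both passed 15 points in 411 (58.1%). In 10 windows 1 allele passed 15 points while the other was not above 0.

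**Figure D5:**
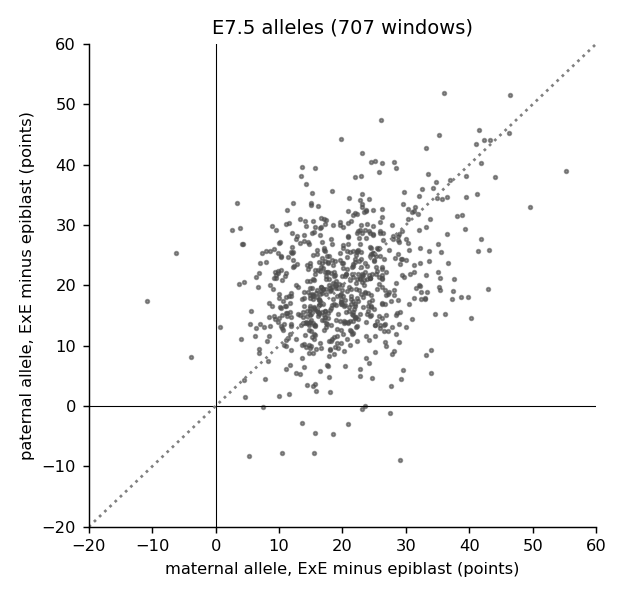
ExE minus epiblast at E7.5 on the maternal (x) and the paternal (y) allele, in percentage points, for the 707 ExE-higher windows with all 16 allele values; the dotted line marks equality. Most points, 692, lie in the upper right quadrant, with medians of 19.8 and 19.6 points.

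The maternal minus paternal difference itself was centred at 0. In ExE its median was -0.407 points over 1135 windows, with an interquartile range of -5.37 to 4.37, and in epiblast -0.0812 over 719. In ExE 1 window was called (limma with a strain term, adjustment over 318358 windows, of which 0.00722% were called), and in epiblast none, where 0.00838% of 238529 were called. An unadjusted p below 0.05 was found in 137 windows in ExE (12.1%, against 6.38% of all) and in 48 in epiblast (6.68% against 4.87%). The strain term gave no call in either tissue (limma), with an unadjusted p below 0.05 in 145 of the windows in ExE (12.8%, against 8.73% of all) and 58 in epiblast (8.07% against 6.65%).

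The called window was at a start of Gnas (chr2:174283902-174284827), an imprinted locus with promoters methylated on opposite alleles. In ExE its maternal allele had 4.4% and 4.3% in B6/CAST and 0% and 26.8% in CAST/B6, and its paternal allele 98.3%, 88.2%, 68.6% and 92.6%, a difference of -78.0 ± 4.09 points (SE, adjusted p = 0.0291). In the epiblast the maternal allele had 0% in all 4 libraries, and the paternal allele 100%, 68.8% and 23.1% in the 3 libraries with a value. The alleles did not overlap in either tissue, and the paternal value of CAST/B6 epiblast replicate 2 was the low one. With any of the 4 ExE libraries left out, no window of the whole table was called, this one included. Without separation of alleles the window had 28.8%, 23.3%, 28.5% and 41.5% in E7.5 epiblast and 41.7%, 41.3%, 55.2% and 50.9% in ExE.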

How the data were processed

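PBAT libraries of pooled E6.5 embryos (15 tissue samples) and of single E7.5 embryos (8 tissue samples) were analysed, from the authors' tables of percent methylation per window. The authors deposited percent values from 0 to 100, without coverage, so the depth and counting error of a value are unknown. The submitters' processing notes name Trim Galore 0.4.4 and Bismark 0.20.0 for E6.5, Bismark without a version for E7.5, and GRCm38; E7.5 reads were sorted by allele by the authors, and their bisulphite conversion was repeated. 1 B6/CAST epiblast column was matched to its group but to no replicate number, and 5 E6.5 columns carry the word reimport, whose meaning is not given.

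The windows and gene lists were chosen with earlier results of these data known. Each ExE-higher window was read at E6.5 through the window that holds its midpoint, counted once. Windows with every value of a comparison were fitted with limma 3.58.1 in R 4.3.3 (lmFit, eBayes with default settings, percent scale) over all autosomal windows, with Benjamini-Hochberg adjustment at 0.05 and the cross as covariate, or, for alleles, the difference within each library with a strain term. The fits were tested on simulated data. Where nothing says that replicates are separate litters, p-values measure the spread between these libraries. Starts are those of protein-coding transcripts in GENCODE vM21, and sequence was read from GRCm38.p6. Named are the windows with the largest 12 differences at E7.5, the 10 largest and 5 lowest at E6.5, up to 10 called in each further test, up to 4 starts a gene list, those next to the threshold and the shortest and longest, spaced by 50 kb where ranked. Some windows that this rule names are not reported here. The alternatives were the scale, the eBayes settings, a replicate block, missing values, subtraction of library means, a minimum difference, the covariates or control group, stricter windows, the overlap rule and leaving out each library.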

Additional observations from a re-analysis of the deposited data

Results flagged for a closer look

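Single libraries stood apart from their group in 3 of 124 groups of 4 to 6 libraries examined (means over the ExE-higher windows and the values of the named windows), where chance flags about 1 group in 20. At Gbx2, the E6.5 epiblast library B6/CAST replicate 1 had 22.2%, above the other 5 wild-type epiblast libraries. At Gbx2 at E7.5, the ExE library B6/CAST replicate 2 had 48.0%, while the other three were at 38.4% and 38.5%. At Irx2 the E6.5 ExE library CAST/B6 replicate 2 had 5.26%, while the others had 51.3% to 58.9%. None of the means over the windows was set apart in this way.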

How the results depend on the processing

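The number of ExE-higher windows, 1546, was 3132 at a threshold of 10 points, 674 at 20 points, 1523 in B6/CAST alone and 1866 in CAST/B6 alone, and 1472 to 1717 with each E7.5 library left out. After subtraction of each library's mean, which removes the lower overall level of ExE, 28874 windows passed 15 points. The 630 windows higher in wild-type ExE at E6.5 became 328 for the windows past 20 points at E7.5, which are fewer by construction, 220 with a replicate block (19.6%, and 57.7% of the calls over all windows), which leaves fewer degrees of freedom, and 973 after subtraction of library means (86.9% of those tested, with 8.66% of all windows called, against 0.663% without it), and 511 to 680 with each library left out. Deviations of same-numbered epiblast and ExE libraries correlated by 0.0294 at most. Whether the numbers pair the libraries cannot be told from this, since noise in single values of unknown depth lowers such a correlation. The comparison of matDKO/CAST with B6/CAST in ExE gave no call in any window of the table under any setting, left-out libraries included (0), which says nothing about stability, except 152 with the wild-type crosses pooled (12.9%, against 26.3% of all windows). In the epiblast the 32 lower windows became 12 past 20 points, 19 past 15 points in each cross, 60 with trended and robust eBayes, 52 with wild-type crosses pooled (5.53%, against 47.7% of all windows; the 2 higher ones became 13 with trended and robust eBayes and 10 with pooled crosses), 11 to 27 with each library left out (an arm of 1 library takes its spread from the other groups), and 0 on the logit scale, with the replicate block and after subtraction of library means, where no window of the whole table was called either; the cause was not tested. The tissue difference within matDKO/CAST and the interaction gave 0 under every setting. The ExE alleles gave 0 past 20 points, a list that does not hold the Gnas window, and 0 with trended and robust eBayes and without any 1 ExE library, where no window of the table was called, and the epiblast alleles gave 0 throughout. Requiring at least 2 values per group equals the allele fit as made. The 13 windows described by rank of E6.5 difference kept call and direction in 206 of 221 fits under the settings that refit them and lost the call in 15, all of them among the windows lower in ExE, with 10 at Nhlh2, which lost it without each wild-type library except B6/CAST epiblast replicate 1, CAST/B6 epiblast replicate 3 and CAST/B6 ExE replicate 1. Precision of single values is limited by depth, which the tables do not give.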
